A study of Mus musculus with 2 samples.

Results

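The genes described here are 9 members of the adrenergic and G protein signalling pathway of the heart muscle cell: Adra1a and Adra1b for the α1-adrenergic receptors, the β1-adrenergic receptor gene Adrb1, the receptor kinase gene Adrbk1 (now named Grk2), the G protein subunit gene Gnaq, the genes of the regulators of G protein signalling Rgs2, Rgs3 and Rgs4, and the orphan receptor gene Gpr22. They were chosen by symbol, with earlier results of these data known, from 31920 symbols in the deposited table, and all 9 were found. Their values therefore describe 2 libraries, carry no test and have no replicate check. RNA came from the left ventricle of 2 male 129-SvEv mice aged 10 weeks. The genotypes were Wildtype and Lamp2 knockout, with 1 library each, no treatment is recorded, and the labels do not give the part of Lamp2 that the allele removes. Lamp2, an X-linked gene for a lysosomal membrane protein, was at 118 RPM (the reads of a gene over all reads assigned to genes, times 1000000) in the wildtype library and at 112 RPM in the library labelled Lamp2 knockout, so its count does not check the label. The latter is called the knockout-labelled library below.

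Noradrenaline and adrenaline act on heart muscle cells through β1 receptors, which couple to Gs and raise cyclic AMP, and through α1 receptors, which couple to Gq and phospholipase C. The receptor kinase GRK2 phosphorylates active receptors and so desensitises them. RGS proteins speed up GTP hydrolysis by Gα subunits and end the signal, and RGS2 is best known for its preference for Gq. In the mouse heart, β1 receptors drive contraction and heart rate responses, while α1A and α1B receptors take part in growth and survival signalling.

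Both libraries were of similar depth, at 8410593 reads in the wildtype and 8773820 in the knockout-labelled library. Mitochondrial transcripts took 26.5% and 16.2% of the reads, which moves the RPM of every other gene. Ratios are therefore also given after dividing by the median ratio of measured genes (1.08), by a trimmed mean of log ratios (1.09), and by the change of a reduced total that leaves out mitochondrial reads and the 10 top genes by level (1.14). Genes count as measured from 5 RPM upward in either library. A gene was called lower or higher if log2 of the ratio, with a pseudocount of 1 RPM, was at least 1 in size. Intervals in brackets are exact 95% intervals that cover counting error only. In bulk tissue, fewer cells of a type and less RNA per cell cannot be told apart.

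All 9 genes were measured. In the knockout-labelled library 5 of them were called lower and 0 were called higher. Among all 10209 measured genes, 2.37% were called lower and 3.35% higher. Because the genes were picked with these values in view, nothing is read from that difference. The 5 lower genes were Rgs2, Gpr22, Adra1b, Adra1a and Adrb1. The same 5 were lower after dividing by the median ratio and by the trimmed mean, and Rgs4 joined them on the reduced total. The median log2 ratio of the 9 genes was −1.15, against 0.11 over all measured genes.

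**Figure D1:**
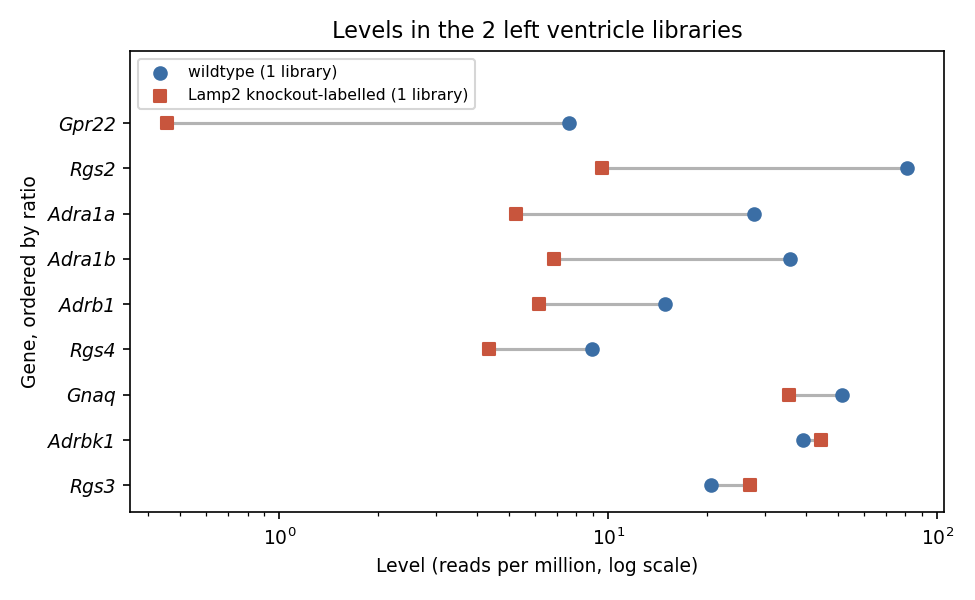
Level of each of the 9 genes in RPM (log axis) in the wildtype library (circles) and the knockout-labelled library (squares), ordered by their ratio, with a grey line joining the 2 values of a gene. The squares lie left of the circles for 7 genes and right of them for Adrbk1 and Rgs3.

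The Rgs2, Rgs4 and Rgs3 promoters are shown because these 3 relatives had different ratios, and those of Adrb1 and Gpr22 as further genes called lower. The windows of Adra1b, also called lower, are not printed. Each line gives the 250 bases before the RefSeq start (GRCm38.p6), 5′ to 3′ on the gene's strand, with matches to TGACG, the core of the cyclic AMP response element, and to TATAAA, the TATA box, in capitals on either strand (CGTCA is the reverse complement of the core). The windows are chr1:144004150-144004399 (minus strand) for Rgs2, chr1:169747643-169747892 (minus) for Rgs4, chr4:62559597-62559846 (plus) for the first Rgs3 start, chr19:56721867-56722116 (plus) for Adrb1 and chr12:31713884-31714133 (minus) for Gpr22.
Rgs2: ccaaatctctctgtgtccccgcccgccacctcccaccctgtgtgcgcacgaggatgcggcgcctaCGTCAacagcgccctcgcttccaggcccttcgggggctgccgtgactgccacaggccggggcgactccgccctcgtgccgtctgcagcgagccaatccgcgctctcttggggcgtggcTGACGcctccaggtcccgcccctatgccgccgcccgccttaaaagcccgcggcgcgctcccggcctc
Rgs4: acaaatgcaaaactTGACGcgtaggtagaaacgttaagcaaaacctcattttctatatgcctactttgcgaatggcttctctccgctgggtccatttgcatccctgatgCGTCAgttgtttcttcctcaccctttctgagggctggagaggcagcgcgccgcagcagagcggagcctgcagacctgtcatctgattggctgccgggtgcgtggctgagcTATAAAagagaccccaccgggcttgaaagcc
Rgs3: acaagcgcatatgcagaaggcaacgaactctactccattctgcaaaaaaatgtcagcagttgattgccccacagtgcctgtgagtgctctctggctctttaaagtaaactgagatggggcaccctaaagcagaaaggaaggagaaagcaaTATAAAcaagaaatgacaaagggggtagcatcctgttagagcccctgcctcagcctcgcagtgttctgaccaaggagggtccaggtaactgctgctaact
Adrb1: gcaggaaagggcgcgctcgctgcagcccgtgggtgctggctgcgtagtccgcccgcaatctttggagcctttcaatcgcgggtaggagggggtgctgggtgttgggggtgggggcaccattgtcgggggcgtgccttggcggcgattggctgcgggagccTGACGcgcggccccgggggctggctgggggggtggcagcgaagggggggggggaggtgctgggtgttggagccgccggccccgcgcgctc
Gpr22: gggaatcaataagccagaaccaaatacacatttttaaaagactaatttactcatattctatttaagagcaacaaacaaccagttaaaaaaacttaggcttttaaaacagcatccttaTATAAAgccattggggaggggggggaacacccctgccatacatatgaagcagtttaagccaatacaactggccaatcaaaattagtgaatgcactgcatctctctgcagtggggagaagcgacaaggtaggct

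The Rgs2 window had 2 matches to TGACG, starting 185 and 67 bases before the start, and no match to TATAAA. The Rgs4 window also had 2 matches to TGACG, starting 236 and 141 bases before the start, and 1 match to TATAAA at 31 bases. Adrb1 had 1 match to TGACG at 90 bases, and the Rgs3 and Gpr22 windows had none. Those 2 windows each had 1 match to TATAAA, starting 100 and 133 bases before the start. The Adra1b windows, not printed, had no match to TGACG or TATAAA. Of 32851 RefSeq windows of this length, 17.8% held TGACG and 12.4% held TATAAA, so matches by themselves are common. The full element TGACGTCA, present in 1.55% of all windows, the E-box CACGTG (6.02%) and the palindromic glucocorticoid response element (0.387%) had no match in any of the 9 windows available for 7 of the genes. Adra1a and Adrbk1 were not among those 7. The windows of Rgs2, Adrb1, Gnaq and the inner Adra1b start were rich in G and C, at 72.4%, 74.0%, 79.2% and 72.8%, against a median of 52.4% over all windows. Gpr22 (39.6%) and the outer Adra1b start (41.6%) lay below the lower quartile of 45.2%. The GC box GGGCGG was found 4 times in the Rgs2 window and 4 times in that of Gnaq, whose ratio was nearer to 1, and 32.7% of all windows held it. The letters AGATAA, a binding site of cardiac zinc finger factors, were found only at the inner Rgs3 start among the 9 windows, with 9.99% over all windows. The RefSeq start equalled the start in the deposited table for Rgs2, Rgs4 and the first Rgs3 start. It lay 255 bases upstream of it for Adrb1 and 43 bases downstream for Gpr22. For Adrb1, Gnaq and both Adra1b starts, the bases tested just after the RefSeq start were not found in a GENCODE transcript of the gene. A match describes letters in a window and not a bound site.

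Both α1 receptor genes were about 5-fold lower in the knockout-labelled library. Adra1a (chromosome 14, 66635258 to 66771168, plus strand) encodes the α1A receptor, and was counted at 233 reads in the wildtype and 46 in the knockout-labelled library, or 27.7 and 5.24 RPM. Its ratio was 0.189 (0.135 to 0.261), and 0.167 to 0.175 under the rescalings. Adra1b (chromosome 11, 43774606 to 43901210, minus strand), which encodes the α1B receptor, had 299 and 60 reads, or 35.6 and 6.84 RPM. Its ratio was 0.192 (0.143 to 0.255). The intervals of both genes lay below 0.5 in each scaling.

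The 2 genes kept nearly the same proportion to each other. There were 1.28 Adra1b reads per Adra1a read in the wildtype and 1.30 in the knockout-labelled library, a change of 1.02 (0.654 to 1.59), which does not depend on scaling. That interval still allows a difference of about 1.5-fold between them. No row of the deposited table overlapped either gene. The third α1 gene, Adra1d, had 10 and 3 reads and was too low to measure.

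Adrb1 (chromosome 19, 56722372 to 56724862, plus strand), which encodes the main β receptor of heart muscle cells, was lower by less than the α1 genes. The wildtype held 125 of its reads and the knockout-labelled library 54, or 14.9 and 6.15 RPM. The ratio was 0.414 (0.295 to 0.574), and 0.365 to 0.382 under the rescalings. The interval of Adrb1 reached past 0.5 on the deposited scale and under each rescaling, where its upper ends were 0.530, 0.529 and 0.506. Its call ended with a pseudocount of 5 RPM, where the log2 ratio was −0.83 in place of −1.15. The number of Adrb1 reads per Adra1a read was 0.536 in the wildtype and 1.17 in the knockout-labelled library, a change of 2.18 (1.36 to 3.52). Against Adra1b it was 0.418 and 0.900, a change of 2.15 (1.38 to 3.35). Within these 2 libraries, the reads of the β1 gene thus stood higher relative to those of each α1 gene in the knockout-labelled library, beyond counting error.

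The α2 receptor genes were all under 5 RPM. Adra2b had 14 and 11 reads, and Adra2c had 5 in each library. Adra2a and Adrb3 had 0 reads in both, which allows up to 0.357 RPM in the wildtype and 0.342 RPM in the knockout-labelled library. Per length of annotated exons (RPKM, which is RPM per 1000 bases of exon), the 8 receptor genes of these paragraphs summed to 19.3 RPKM in the wildtype and to 5.10 RPKM in the knockout-labelled one. Adra1b made up 54.5% and 39.6% of these sums, Adrb1 22.8% and 35.7%, and Adra1a 16.5% and 11.8%. With these lengths Adra1b made up the largest part of both sums. In the knockout-labelled library, however, the intervals of Adra1b (1.54 to 2.60 RPKM) and Adrb1 (1.37 to 2.37 RPKM) overlapped. The annotated exons of Adrb1 (3382 bases) reach to 56733113, past the end of its deposited row at 56724862. The level of Adrb1 per length may therefore be too low. Which of Adra1b and Adrb1 led in the knockout-labelled library is not settled.

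**Figure D2:**
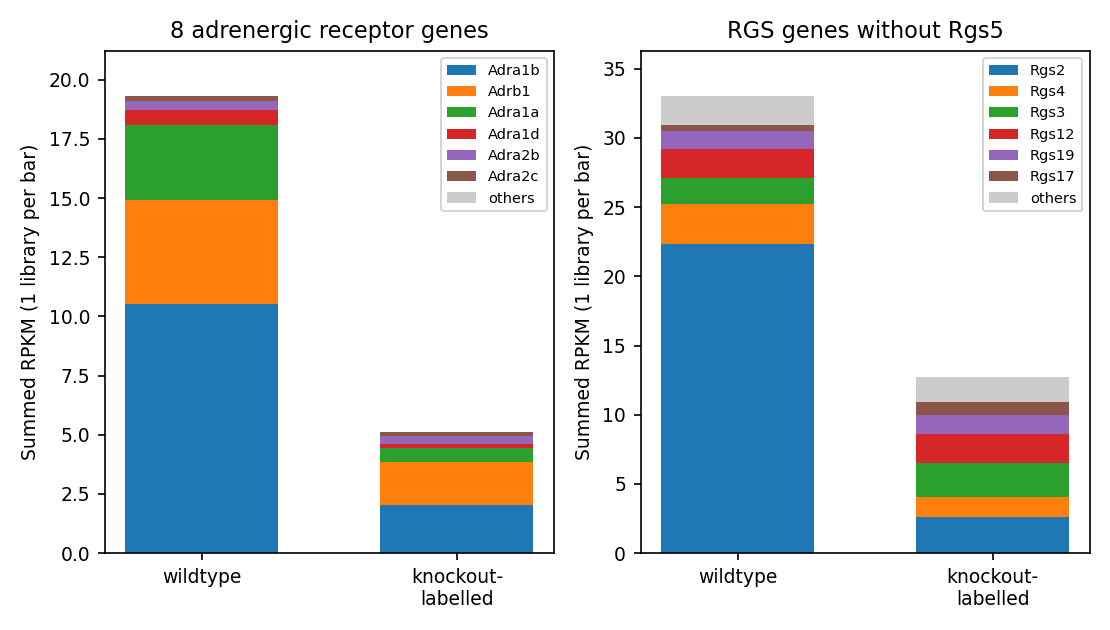
Levels per length (RPKM) of 8 adrenergic receptor genes and of the RGS genes without Rgs5, stacked by gene, with 1 library per bar and the genes beyond the 6 most abundant summed as others. The receptor bar is 19.3 RPKM in the wildtype and 5.10 RPKM in the knockout-labelled library, and the RGS bar 33.0 and 12.7 RPKM, with Rgs2 the tallest part of the wildtype RGS bar.

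Adrbk1 (chromosome 19, 4286001 to 4305955, minus strand), the gene of the kinase that desensitises β receptors, did not differ beyond counting error. Its reads numbered 328 and 390, or 39.0 and 44.5 RPM. The ratio was 1.14 (0.982 to 1.32) on the deposited scale, and its interval on the reduced total was 0.864 to 1.17. There were 2.62 Adrbk1 reads per Adrb1 read in the wildtype and 7.22 in the knockout-labelled library, a change of 2.75 (1.91 to 3.99). The proportion of kinase to β1 receptor transcripts was thus higher in the knockout-labelled library.

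Among the other receptor kinases and arrestins, 0 of 6 measured genes were called, against 2.37% lower and 3.35% higher of all measured genes. Their median log2 ratio was 0.26. Grk5, the other abundant receptor kinase of the heart, was at 59.4 and 52.8 RPM, a ratio of 0.888 (0.781 to 1.01). Adrbk1 reads per Grk5 read were 0.656 and 0.842, a change of 1.28 (1.05 to 1.57). Pebp1, which encodes a Raf kinase inhibitor protein that can also bind GRK2, was at 17.8 and 21.4 RPM.

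Gnaq (chromosome 19, 16132831 to 16387453, plus strand) encodes Gαq, the subunit that carries the α1 receptor signal to phospholipase C. Its reads numbered 433 in the wildtype and 310 in the knockout-labelled library, or 51.5 and 35.3 RPM. The ratio of 0.686 (0.591 to 0.796) excluded 1 on counting error but did not reach 2-fold, and it was 0.604 to 0.633 under the rescalings. Its closest relative Gna11, named after its value was seen, was at 87.3 and 95.9 RPM. Gnaq reads per Gna11 read were 0.590 and 0.369, a change of 0.625 (0.522 to 0.748). Adra1a and Adra1b reads per Gnaq read changed by 0.276 (0.190 to 0.394) and 0.281 (0.201 to 0.387), so both receptor genes were lower than Gnaq as well as lower than the whole library. A row for E030024N20Rik lies inside Gnaq, with 7 and 3 reads, and the annotation gives no exon base shared with Gnaq there.

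Rgs2 (chromosome 1, 143999338 to 144004149, minus strand) had the most reads of the 9 genes in the wildtype. With the pseudocount of 1 RPM it also had the lowest log2 ratio of the 9, while Gpr22 had the lowest ratio without a pseudocount. The wildtype held 682 of its reads and the knockout-labelled library 84, or 81.1 and 9.57 RPM. The ratio of Rgs2 was 0.118 (0.0930 to 0.148), and 0.104 to 0.109 under the rescalings. With the pseudocount, its log2 ratio was the 3rd lowest of all 10209 measured genes. There were 1.58 Rgs2 reads per Gnaq read in the wildtype and 0.271 in the knockout-labelled library, a change of 0.172 (0.130 to 0.227). The transcript of the Gq regulator was therefore lower by more than that of the subunit it acts on.

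Rgs4 (chromosome 1, 169741477 to 169747642, minus strand), a small relative of Rgs2 that acts on Gi and Gq, was lower with less certainty. It had 75 and 38 reads, or 8.92 and 4.33 RPM. The ratio was 0.486 (0.320 to 0.727), while the log2 ratio with the pseudocount was −0.90, so it was not called on the deposited scale. It was called with a pseudocount of 0.1 RPM (−1.03) and on the reduced total (−1.04). Rgs2 reads per Rgs4 read were 9.09 and 2.21, a change of 0.244 (0.152 to 0.394). The 2 genes were therefore not lower by the same factor.

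Rgs3 (chromosome 4, 62559847 to 62703019, plus strand), a longer regulator of Gi and Gq with several isoforms, went the other way by a small amount. The libraries held 172 and 237 of its reads, or 20.5 and 27.0 RPM. The ratio of 1.32 (1.08 to 1.62) excluded 1 on the deposited scale. It did not under the rescalings, at 1.22 (0.997 to 1.49), 1.22 (0.995 to 1.49) and 1.16 (0.952 to 1.42). Rgs2 reads per Rgs3 read were 3.97 and 0.354, a change of 0.0896 (0.0654 to 0.122), the largest shift between any 2 of the RGS members. Rgs3 reads thus exceeded Rgs2 reads only in the knockout-labelled library. The annotated exons of Rgs3 are longer, at 10801 bases against 3627 for Rgs2. Per length, Rgs2 (2.64 RPKM) and Rgs3 (2.50 RPKM) had overlapping intervals in that library.

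Of the other RGS genes, 17 of 18 were in the table, 4 were measured and 1 was called lower, against 2.37% of all measured genes. That gene was Rgs6, a regulator of muscarinic receptor signalling in the heart, at 7.37 and 2.85 RPM with a ratio of 0.387 (0.233 to 0.624). Rgs5, a gene of pericytes and vascular smooth muscle, was the most abundant RGS gene at 608 and 567 RPM, a ratio of 0.931 (0.896 to 0.969). Rgs12 was at 17.4 and 17.3 RPM. Rgs5 held 80.2% of the family's summed RPKM in the wildtype and 90.7% in the knockout-labelled library. Without Rgs5, Rgs2 held 67.7% of the wildtype sum and 20.7% of the other, where Rgs3 held 19.6% and Rgs12 16.0%. Rgs2 was thus the leading transcript of that remainder in the wildtype, and one of several of like level in the knockout-labelled library.

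Gpr22 (chromosome 12, 31706867 to 31713926, minus strand) encodes an orphan receptor found in heart and brain. The wildtype held 64 of its reads and the knockout-labelled library 4, or 7.61 and 0.456 RPM. The ratio of 0.0599 (0.0158 to 0.161) was the lowest of the 9, with the widest interval on a log scale. With the pseudocount its log2 ratio was −2.56, and it ranged from −3.79 to −1.21 over pseudocounts of 0.1 and 5 RPM, so its size is poorly known. A pseudocount added to both libraries cannot change the direction. The gene lies inside Cog5, a Golgi complex gene on the opposite strand, and the annotation gives 0 shared exon bases. The use of strand in counting is not given in the sources used here, so intronic reads of Cog5 that fall within Gpr22 exons could not be told apart from reads of Gpr22. Cog5 was at 25.3 and 17.4 RPM, a ratio of 0.689 (0.556 to 0.852), and Gpr22 reads per Cog5 read changed by 0.0873 (0.0226 to 0.242).

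**Figure D3:**
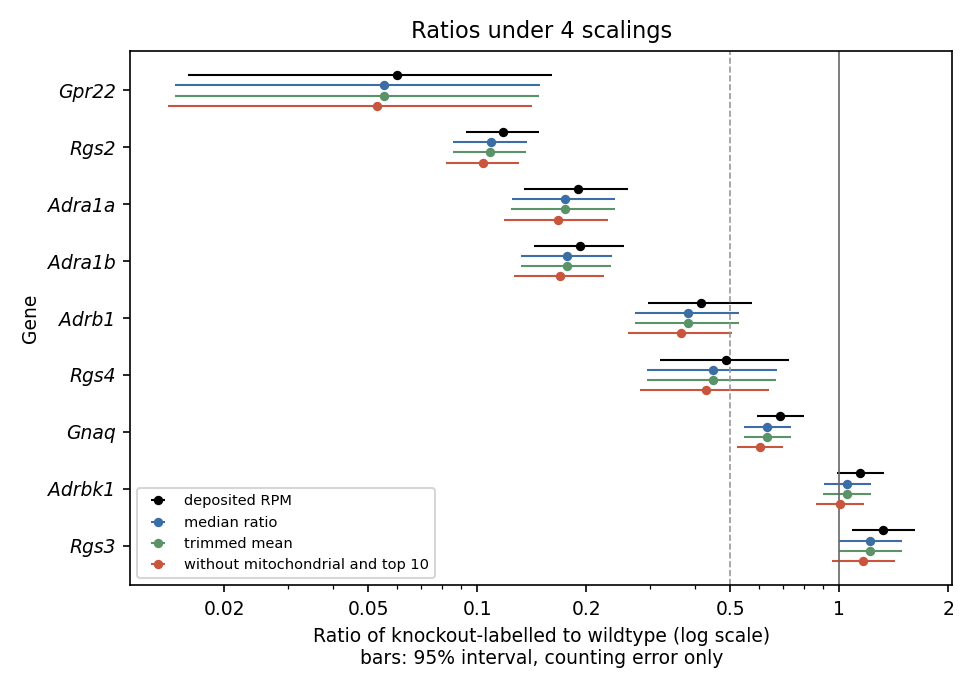
Ratio of the knockout-labelled to the wildtype level of each gene (log axis) on the deposited scale and under 3 rescalings, with bars for the 95% interval from counting error. The solid line marks 1 and the dashed line 0.5. The intervals of Gpr22, Rgs2, Adra1a and Adra1b lie left of 0.5 in all 4 scalings, those of Adrb1 and Rgs4 cross it, and that of Gnaq lies between 0.5 and 1. The points of Adrbk1 and Rgs3 lie at or above 1, and the intervals of both reach below 1 in the 3 rescalings, as does that of Adrbk1 on the deposited scale.

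The order of the levels differed between the libraries. Per length, Rgs2 led in the wildtype at 22.4 RPKM, followed by Adra1b at 10.5, Adrbk1 at 8.71 and Gnaq at 8.32 RPKM. Adra1b and Adrbk1 overlapped in their counting intervals, as did Adrbk1 and Gnaq. Adrb1 (4.39 RPKM), Adra1a (3.17), Rgs4 (2.88), Rgs3 (1.89) and Gpr22 (1.65) came after, and the intervals of Adra1a and Rgs4 and of Rgs3 and Gpr22 overlapped. In the knockout-labelled library Adrbk1 led at 9.93 RPKM and Gnaq was second at 5.71 RPKM. Rgs2 (2.64 RPKM), Rgs3 (2.50), Adra1b (2.02), Adrb1 (1.82) and Rgs4 (1.40) formed a run in which each neighbour overlapped the next. Adra1a (0.601 RPKM) and Gpr22 (0.0989 RPKM) were last and apart. The exon length used joins the exons of all annotated transcripts of a gene, which lowers the level of genes with many isoforms such as Rgs3. For Adrb1 the annotation reaches past the end of the deposited row, so its level may also be too low.

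**Figure D4:**
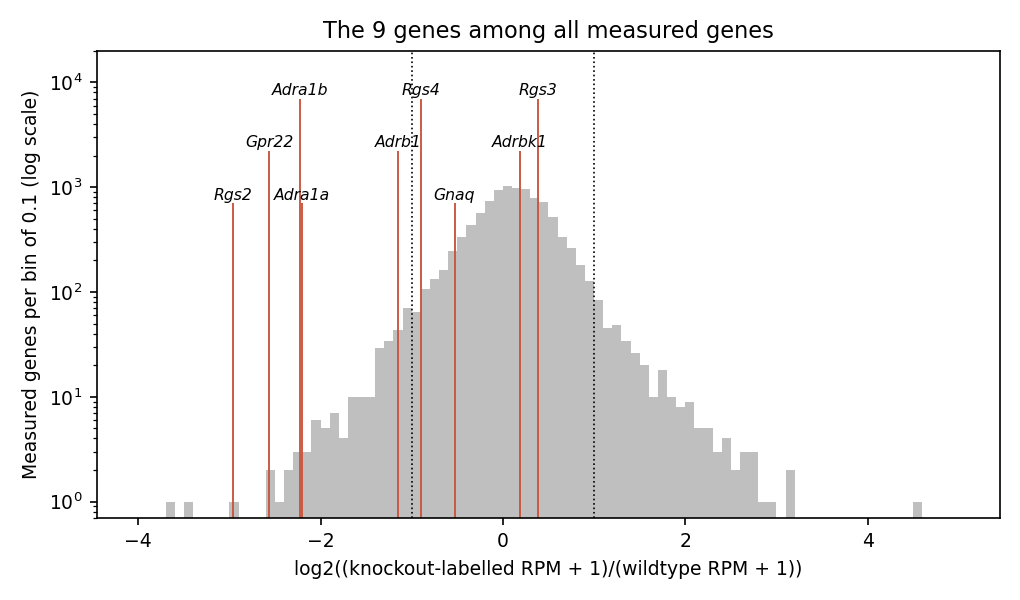
Number of measured genes per bin of 0.1 in log2 ratio with a pseudocount of 1 RPM (log axis for the numbers), with the 9 genes as vertical lines and dotted lines at −1 and 1. Rgs2 stands at −2.96 near the lower end, Gpr22, Adra1b and Adra1a between −2.56 and −2.20, and Adrbk1 and Rgs3 near the bulk of the genes at 0.18 and 0.39.

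For each gene, the nearest over the 2 libraries was found among 9184 other measured genes, with provisional and clone-based symbols left out, by the distance of both log2(RPM + 1) values. With 2 libraries this measures only level and ratio. The nearest to Rgs2 was Ucp3 at 83.2 and 6.84 RPM (distance 0.43), to Adra1a Angpt1 at 26.5 and 6.15 RPM (0.21), and to Adra1b Col3a1 at 36.4 and 6.38 RPM (0.09). Adrb1 was nearest to Plekha7 (14.3 and 6.04 RPM), Rgs4 to Rbbp9 (9.27 and 4.45 RPM) and Gpr22 to Ccl2 (6.66 and 0.798 RPM). Adrbk1, Gnaq and Rgs3 had neighbours at distances that round to 0.02 or less, namely Ppara, Lman1 and Pick1, the last with counts equal to those of Rgs3 in both libraries.

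The wider pathway was described with 9 lists of 156 genes in the table, of which 80 were measured. Called lower were 5 of the 80 (6.25%) and called higher was 1, against 2.37% and 3.35% of all measured genes. Their median log2 ratio was 0.05, against 0.11 over all measured genes. Besides Rgs6, the lower genes were Aplnr, the apelin receptor gene, at 12.7 and 2.28 RPM (ratio 0.179, 0.105 to 0.291), and P2ry1, an ADP receptor gene, at 14.9 and 5.24 RPM (0.353, 0.246 to 0.498). Pde7b, a phosphodiesterase gene for cyclic AMP, was at 26.3 and 10.5 RPM (0.399, 0.309 to 0.511). Slc22a3, which encodes a transporter that takes up catecholamines outside nerve endings, was at 16.5 and 3.76 RPM (0.228, 0.151 to 0.335). The 1 higher gene was Gnb3, a G protein β subunit, at 11.2 and 32.7 RPM (2.93, 2.31 to 3.74).

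The counts of called genes downstream of the receptors stand beside 2.37% lower and 3.35% higher among all measured genes. Of 17 measured G protein subunit genes besides Gnaq, only Gnb3 was called, and the median log2 ratio was 0.23. Gnas, which encodes the Gs subunit, was at 860 and 907 RPM, and Gnai2 at 223 and 260 RPM. Of 14 measured Gq effectors 0 were called, with a median of 0.11, and the protein kinase C gene Prkce and the diacylglycerol kinase gene Dgkz were at 37.3 and 40.1 RPM and at 42.0 and 49.8 RPM. Of 13 measured genes of cyclic AMP synthesis and protein kinase A 0 were called, with a median of −0.09. The kinase subunit genes Prkaca and Prkar1a had ratios of 0.840 (0.793 to 0.889) and 0.926 (0.880 to 0.975).

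Phosphodiesterases had a median of −0.24 over 10 measured genes, and their 2 most abundant members differed in direction. Pde2a was at 56.5 and 106 RPM and Pde3a at 68.2 and 55.4 RPM, neither of them called. Among other cardiac receptors, 2 of 12 measured genes were called lower, namely Aplnr and P2ry1, against 2.37% of all measured genes. The endothelin receptor gene Ednra and the muscarinic receptor gene Chrm2 had ratios of 0.962 (0.851 to 1.09) and 1.03 (0.907 to 1.18). Of the catecholamine genes 4 were measured, with a median of −0.51. Of these, the breakdown enzyme gene Maob was at 68.2 and 38.3 RPM, a ratio of 0.561 (0.489 to 0.643).

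**Figure D5:**
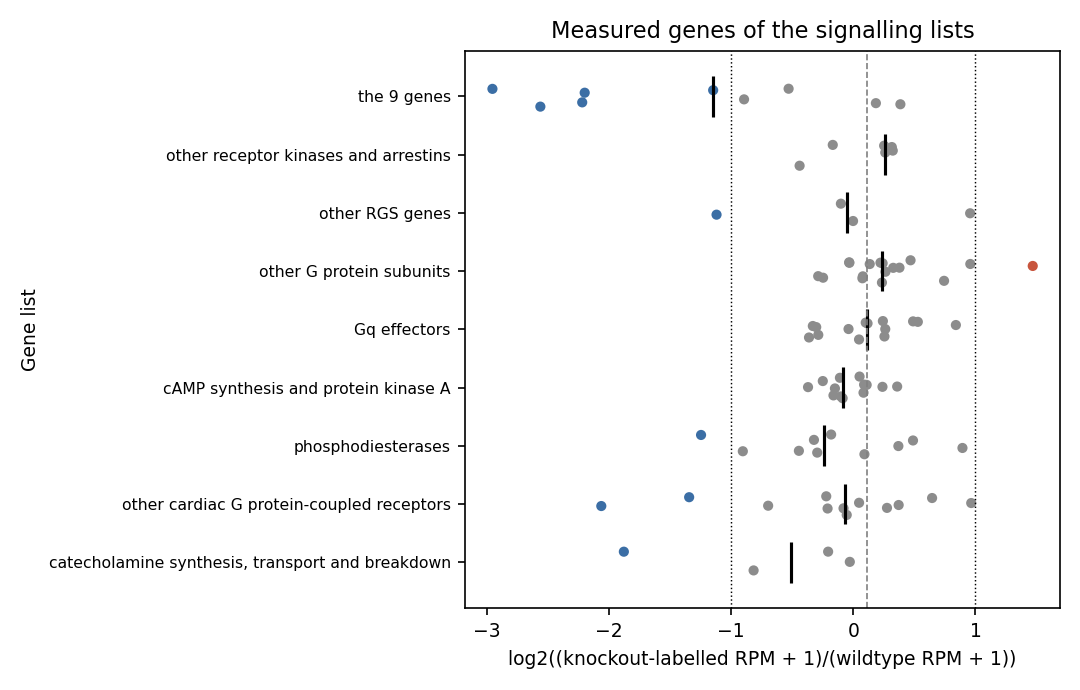
Log2 ratio, with a pseudocount of 1 RPM, of each measured gene of the 9 genes and of the signalling lists, with blue points for genes called lower, red for genes called higher, grey for the others and a black bar for the list's median. The dashed line is the median of all measured genes (0.11) and the dotted lines stand at −1 and 1. The list of other adrenergic receptors is not drawn because none of its 6 genes was measured.

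The markers of the tissue and of other cell types were as follows. All 8 ventricular cardiomyocyte markers were measured and 0 were called, with sums of 54068 and 52644 RPM. They did not all move alike. Actc1 had a ratio of 0.711 (0.698 to 0.724) and Ryr2 a ratio of 1.42 (1.39 to 1.45). Of the genes listed as atrial markers, Bmp10 was at 0 in both libraries and Myl7, Myl4 and Sln were under the 5 RPM minimum. Only Kcnk3 was measured, at 799 and 492 RPM, and nothing on atrial tissue is read from it. Of the fibroblast markers 5 of 8 were called lower, against 2.37% of all measured genes, with sums of 585 and 493 RPM. The 5 were Col1a1, Col3a1, Islr, Lum and Pi16, and the median log2 ratio of all 8 was −1.07. Among the 3 not called, Dcn, which made up most of both sums, was at 379 and 393 RPM. Pdgfra was at 43.6 and 42.9 RPM and Tcf21 at 8.44 and 4.67 RPM. Of the macrophage markers 2 of 6 measured were called higher, against 3.35% of all measured genes, with sums of 140 and 280 RPM. These were C1qa and C1qb, and the median log2 ratio of the 6 was 0.68. The others measured, Cd14, Csf1r, Lyz2 and Cd68, had log2 ratios of 0.11, 0.25, 0.49 and 0.86. None of the 9 measured smooth muscle and pericyte markers or the 8 endothelial markers was called, with sums of 1088 and 988 RPM and of 1000 and 903 RPM. Their log2 ratios were below 0 for 8 of the 9 and for 5 of the 8. The medians were −0.33 and −0.13, against 0.11 over all measured genes. Of the 7 Schwann cell and neuron markers, 3 had at most 3 reads in both libraries, and none was called. The part of these shifts in the values of the 9 genes was not tested.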

How the data were processed

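The authors deposited 1 table. Per the file headers its columns are whole-number counts of reads for each gene symbol, without normalization, and RPM values, which equal the count over the library's total times 1000000 within 5e-05. The deposited table also holds the authors' fold (a ratio, blank for 18680 symbols) and the authors' p-value, whose method is not given in the sources used here; neither was used. Per the submitters' processing notes STAR and the builds mm10 and GRCm38 were used. Of the counter, the annotation release and strandedness nothing is given in the sources used here. Groups came from the genotype labels.

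The members and gene lists were chosen with earlier results of these data known. With 1 library per group no test of the genotypes was made. Named were the 9 genes, called genes and the 2 most abundant of each list, the 1 nearest gene to each member, overlapping genes and markers; 2 genes that this rule names are not reported here. Ratios are of RPM without pseudocount, with 95% intervals from the exact conditional binomial (Clopper-Pearson) method, and level intervals are exact Poisson. Changes of one gene relative to another are conditional odds ratios with exact 95% intervals. Without molecular identifiers, reads are not independent molecules, so intervals and floors cover counting error only. A count of 0 allows 3 reads. The fold rule and intervals were tested on simulated data. Deposited starts count from 0 and are given plus 1. Exon lengths came from GENCODE M21 (GRCm38) and promoters from the RefSeq table (GRCm38.p6). The tools were scipy 1.17.1, numpy 2.4.6, pandas 2.3.3 and matplotlib 3.10.9 in Python 3.11.15. Alternatives were other pseudocounts, minimums, folds and scalings, and an added exact binomial test.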

Additional observations from a re-analysis of the deposited data

How the results depend on the processing

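Each count was recomputed under 11 alternatives. The number of the 9 genes called lower was 3 with a minimum of 20 RPM, where 6 were measured, and lay between 4 and 6 under the other 10; the number called higher was 0 under all 11. No member's log2 ratio changed sign under the 3 rescalings. Their factors of 1.08, 1.09 and 1.14 lower every ratio, so only Adrbk1 and Rgs3 could have changed sign. The 2 other pseudocounts cannot change a sign, because the same value is added to both libraries. Over all measured genes, the numbers lower and higher were 75 and 194 with a pseudocount of 5 RPM, 92 and 220 with a minimum of 20 RPM, 745 and 1307 at 1.5-fold, and 46 and 87 at 3-fold. With a minimum of 1 RPM or none, 397 were lower. The share of called genes that were higher, 58.6% on the deposited scale, was 44.8% after dividing by the median ratio, 44.5% after the trimmed mean and 38.3% (222 higher) on the total reduced by mitochondrial reads and the 10 top genes. Of the pathway genes, 3 were lower with a pseudocount of 5 RPM, 1 with a minimum of 20 RPM, 8 at 1.5-fold and 2 at 3-fold. Under each of the 3 rescalings 6 were lower. The added gene was the phosphodiesterase gene Pde4a, at 58.7 and 30.9 RPM on the deposited scale (ratio 0.526, 0.452 to 0.611). Higher were 3 with a pseudocount of 0.1 RPM, 2 with a minimum of 1 RPM or none, 8 at 1.5-fold and 0 at 3-fold. An added exact binomial test on read counts, adjusted by Benjamini-Hochberg, which compares the 2 libraries and not the genotypes, changed no count. The fold rule with its 5 RPM minimum left that test little room to change one. Changing the minimum or the fold changes which genes can be called. All 9 genes passed the main minimum, so a minimum of 1 RPM or none could not change their counts. Depth limits Gpr22 most, at 4 reads in the knockout-labelled library, and Rgs4 at 38. No paired analysis was possible because each group has 1 library.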
